A study of Arabidopsis thaliana with 24 samples.

Results

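The 10 genes described here act in the synthesis of salicylate and in the defence that it sets off in Arabidopsis thaliana. They are the rows of the count table with the locus identifiers of PR1 (AT2G14610), BGL2, also called PR2 (AT3G57260), PR5 (AT1G75040), ICS1 (AT1G74710), EDS5 (AT4G39030), PBS3 (AT5G13320), FMO1 (AT1G19250), SARD1 (AT1G73805), CBP60G (AT5G26920) and ACD6 (AT4G14400). All 10 were found among the 32833 genes of the table, and all 10 passed the filter on low counts in every fit. Polysome-bound mRNA, the messages recovered together with several ribosomes, was sequenced from whole seedlings aged 9 days. The plants were the exa1-1 mutant or the wild type Col-0, and each treatment lasted 60 min. The groups were exa1-1 in 200 mM NaCl, exa1-1 in MS medium, wild type in NaCl, wild type in MS, exa1-1 at 39 °C, exa1-1 at 23 °C, wild type at 39 °C and wild type at 23 °C. Each group had 3 biological replicates, 24 libraries in all. MS is the control of the salt treatment and 23 °C that of the heat treatment. All seedlings were grown on MS medium with sucrose, and the mutant is represented by the single allele exa1-1. No total RNA was analysed here, so more message and more ribosome loading of the same message cannot be told apart, nor can fewer cells of a type and less RNA per cell.

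Salicylate is a plant hormone of immunity against pathogens that feed on living cells. In Arabidopsis most of it is made from chorismate by ICS1, the isochorismate synthase of the chloroplast. EDS5 is the transporter that passes isochorismate to the cytosol, and PBS3 is the enzyme that joins it to glutamate, a product that then breaks down to salicylate. SARD1 and CBP60G are related transcription factors that bind the ICS1 promoter, and ACD6 is a membrane protein with ankyrin repeats that raises salicylate signalling. FMO1 makes N-hydroxypipecolate, the mobile signal of systemic resistance. PR1, BGL2 and PR5 encode secreted proteins of the response, a cysteine-rich protein, a glucanase and a thaumatin-like protein.

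The genotype labels were checked on EXA1 (AT5G42950), the gene altered in the mutant, whose GYF-domain protein is known to bind cap-binding translation factors. EXA1 stood between 5.16 and 9.58 CPM (counts scaled to a common library size, scaled by TMM over the 24 libraries) in the 12 exa1-1 libraries, against 51.9 to 105 CPM in the 12 wild-type libraries. Library totals ran from 17861136 to 20629439 counts, and a single library held from 3 to 1432 counts of any of the 10 genes. Whole seedlings hold both organs, and all 5 shoot markers and all 5 root markers were counted in every group, none at 0. The root markers summed to 9.89 to 10.5 CPM in exa1-1 in NaCl, against 9.60 to 10.2 CPM in the wild type, and to 93.6 to 99.5 CPM in exa1-1 in MS, against 65.0 to 69.2 CPM in the wild type. They summed to 29.5 to 31.4 CPM in exa1-1 at 39 °C, against 23.7 to 24.6 CPM in the wild type, and to 79.7 to 84.5 CPM in exa1-1 at 23 °C, against 58.6 to 67.5 CPM in the wild type. The shoot markers summed to 9175 to 9377 CPM in exa1-1 in NaCl, against 17033 to 17402 CPM in the wild type, and to 6793 to 7325 CPM in exa1-1 in MS, against 9935 to 10448 CPM in the wild type. At 39 °C they summed to 42436 to 44087 CPM in exa1-1, against 51280.0 to 52266 CPM in the wild type, and at 23 °C to 24752 to 25822 CPM in exa1-1, against 28284 to 29044 CPM in the wild type. So exa1-1 lay lower in shoot markers in all 4 conditions and higher in root markers in MS, at 39 °C and at 23 °C. The part of these differences in the results was not tested.

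Per length of transcript, PR1 was the most abundant of the 10 genes and FMO1 and PBS3 the least. On the authors' FPKM scale (fragments scaled to transcript length and library total), PR1 had a median of 44.0 over the 24 libraries, and EDS5 and PR5 followed with 6.82 and 6.70. CBP60G had a median FPKM of 4.89, ICS1 of 3.36, ACD6 of 3.06, SARD1 of 2.88 and BGL2 of 2.51. FMO1 had a median of 1.08 FPKM and PBS3 of 1.38 FPKM. In the order of levels over the groups the 10 genes did not share one pattern, as the plot of CPM by library shows. The highest mean was in exa1-1 in NaCl for PR1 and PBS3, in exa1-1 in MS for PR5, ICS1 and EDS5, and in the wild type in NaCl for BGL2 and SARD1. It was in the wild type at 39 °C for FMO1 and in the wild type at 23 °C for CBP60G and ACD6. The lowest mean was in exa1-1 at 39 °C for PR1, BGL2, PBS3, SARD1 and CBP60G. For ICS1 the 3 highest groups, exa1-1 in MS, exa1-1 in NaCl and wild type in MS, overlapped as neighbours in the order. So did the 3 lowest groups, exa1-1 at 23 °C, exa1-1 at 39 °C and wild type at 39 °C.

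**Figure D1:**
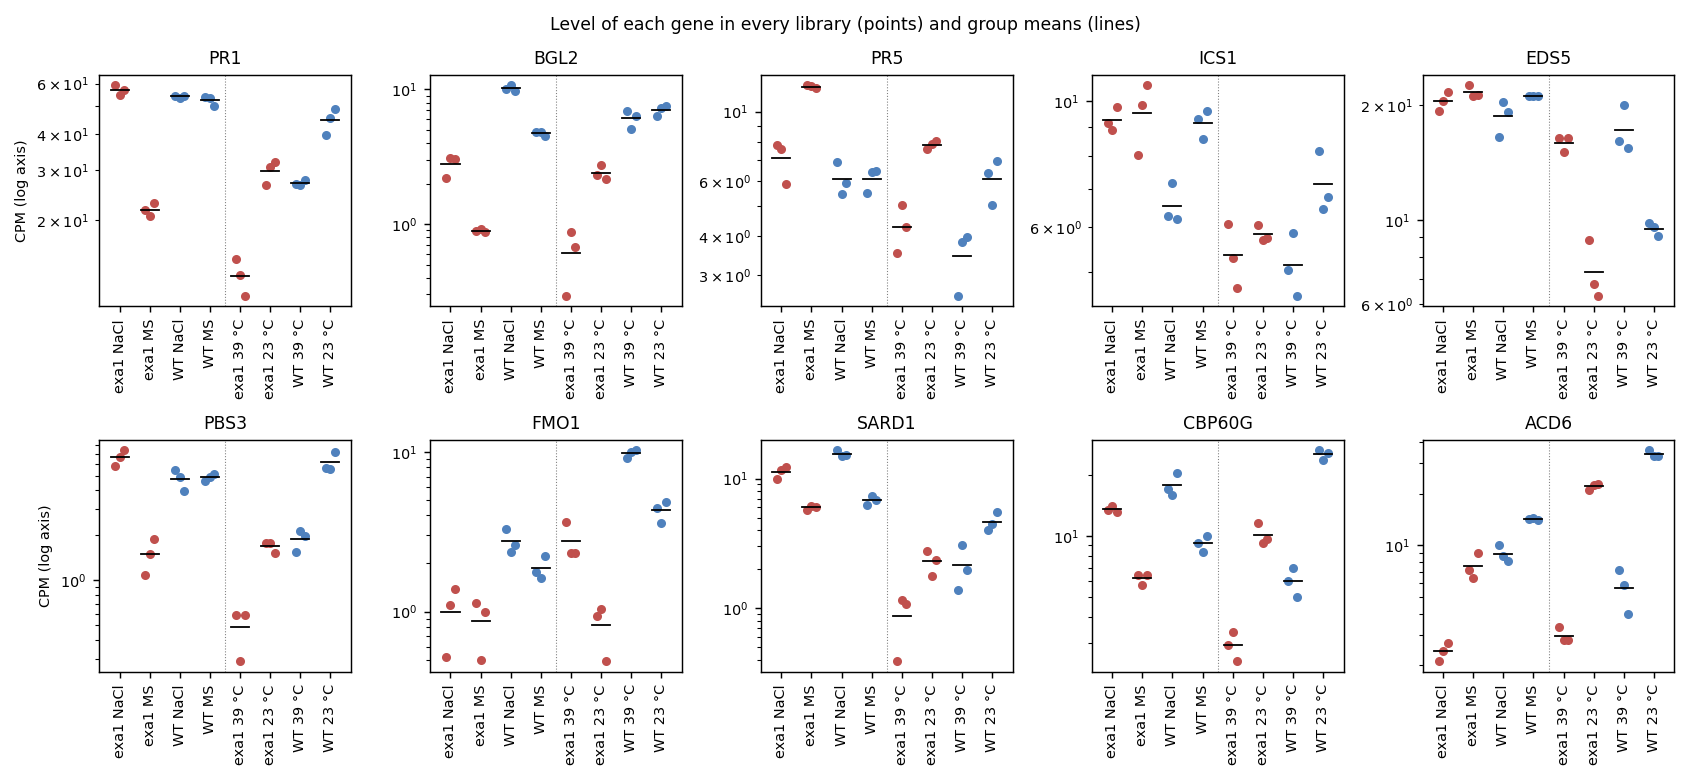
CPM of each of the 10 genes (log axis) in all 24 libraries, as points coloured by genotype (red, exa1-1; blue, wild type), with a line at each group's mean. PR1 averages 21.8 CPM in exa1-1 in MS and lies between 49.9 and 59.3 CPM in the other groups of the salt experiment, and the ICS1 libraries of the 2 genotypes overlap in MS.

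The upstream sequence of 3 genes is given because the regulators among the 10 genes are known to act on the promoters of others among them. The windows hold the 250 bases before the annotated gene start in TAIR10.1, whose nuclear chromosomes are those of TAIR10, read 5′ to 3′ on the strand of the gene. ICS1 lies on the plus strand at chr1:28070045-28070294, and on the minus strand lie FMO1 at chr1:6653196-6653445 and SARD1 at chr1:27749249-27749498. Capitals mark matches on either strand to TTGAC (the core of the W-box bound by WRKY factors), TGACG (the core bound by TGA factors), CGCG (the core bound by CAMTA factors) or GAAATTT (bound by SARD1 and CBP60G).
ICS1: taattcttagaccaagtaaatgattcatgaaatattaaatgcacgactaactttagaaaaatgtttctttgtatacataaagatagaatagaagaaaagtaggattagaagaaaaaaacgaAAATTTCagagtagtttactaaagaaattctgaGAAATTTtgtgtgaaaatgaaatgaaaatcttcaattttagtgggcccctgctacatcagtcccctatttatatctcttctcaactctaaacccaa
FMO1: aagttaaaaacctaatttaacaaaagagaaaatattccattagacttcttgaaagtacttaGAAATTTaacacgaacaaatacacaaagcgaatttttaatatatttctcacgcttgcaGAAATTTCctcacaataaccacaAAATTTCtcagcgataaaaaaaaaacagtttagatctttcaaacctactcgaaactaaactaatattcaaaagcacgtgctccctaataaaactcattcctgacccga
SARD1: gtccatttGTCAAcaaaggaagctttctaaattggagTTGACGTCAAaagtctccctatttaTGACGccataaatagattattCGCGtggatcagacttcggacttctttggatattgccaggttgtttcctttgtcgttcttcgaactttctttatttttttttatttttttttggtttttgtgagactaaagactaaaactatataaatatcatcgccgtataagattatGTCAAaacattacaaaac
Of the windows described here, GAAATTT was found in those of ICS1 with 2 matches and of FMO1 with 4, counting both strands, and in 12.5% of the windows of all 27443 protein-coding genes. In FMO1 one stretch of capitals is read as a match on both strands. TTGAC was found in windows that included those of PR5, EDS5 and SARD1, and in 44.9% of all windows. In SARD1 the letters TTGAC and TGACG overlap on both strands. TGACG was found in SARD1 and in 18.6% of all windows, and CGCG in PR5 and SARD1 and in 10.1% of all windows. The windows of BGL2, PBS3, CBP60G and ACD6 held none of these letters. A match describes the letters and no binding was measured.

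Between 5 and 8 of the 10 genes were lower in exa1-1 than in the wild type, depending on the condition. BGL2, FMO1, CBP60G and ACD6 were lower in all 4, and PR1, PBS3 and SARD1 in 3. In NaCl PBS3 was called higher in exa1-1. ICS1 and EDS5, which carry out the first steps of synthesis, were each called in 1 condition. That call was higher in exa1-1 in NaCl for ICS1 and lower at 23 °C for EDS5. PR5 was called in MS alone, where it was higher in exa1-1. At an adjusted p under 0.05, 5 of the 10 were lower and 2 higher in exa1-1 in NaCl, against 17.1% and 15.3% of all 21453 genes tested. In MS 6 were lower and 1 higher, against 19.5% and 16.5% of all genes. At 39 °C 7 were lower and 0 higher, against 13.7% and 15.2% of the 20923 genes tested there. At 23 °C 8 were lower and 0 higher, against 17.8% and 17.1%. The counts of 0 are from edgeR's quasi-likelihood test. At an unadjusted p under 0.05, 0 of the 10 were higher at 39 °C and 1 at 23 °C, and DESeq2 called 0 and 0. With library totals alone as the scaling, the split of the 10 genes was the same in all 4 conditions. That of all genes then turned to 13.4% lower and 21.5% higher in NaCl, 13.8% and 26.6% in MS, and 17% and 11.9% at 39 °C. The median log2 fold change of the 10 was −0.16 in NaCl, −0.73 in MS, −1.06 at 39 °C and −0.82 at 23 °C, where that of all genes lay between −0.0060 and 0.0054.

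Of the regulators, CBP60G read 6.43, 5.73 and 6.43 CPM in exa1-1 in MS, against 9.25, 8.32 and 10.0 CPM in the wild type. At 23 °C it read 11.5, 9.29 and 9.66 CPM in exa1-1, against 26.4, 23.7 and 25.6 CPM in the wild type. The genotypes did not overlap in either control. The difference was wider at 23 °C (log2 fold change −1.31 with an SE of 0.11, adjusted p = 3.82e-14) than in MS (log2 fold change −0.56 with an SE of 0.11, adjusted p = 9.80e-05). That gap between the controls was called in a test of its own (log2 fold change −0.74 with an SE of 0.16, adjusted p = 1.87e-04). SARD1, its relative, read 5.74, 6.14 and 6.09 CPM in exa1-1 in MS, against 6.30, 7.32 and 6.77 CPM in the wild type. These libraries also did not overlap, yet the difference was not called (log2 fold change −0.17 with an SE of 0.11, adjusted p = 0.254). At 23 °C SARD1 was lower in exa1-1, with 2.77, 1.77 and 2.35 CPM, against 3.98, 4.45 and 5.49 CPM in the wild type (log2 fold change −1.01 with an SE of 0.25, adjusted p = 9.23e-04). ACD6, the ankyrin protein gene, read 7.19, 6.48 and 9.05 CPM in exa1-1 in MS, against 14.2, 14.4 and 14.1 CPM in the wild type (log2 fold change −0.89 with an SE of 0.11, adjusted p = 1.41e-08). At 23 °C it read 21.0, 22.6 and 22.7 CPM in exa1-1, against 35.7, 33.2 and 33.0 CPM in the wild type (log2 fold change −0.62 with an SE of 0.095, adjusted p = 3.49e-07). The 2 genotypes were apart in both controls for ACD6. SARD1 overlaps 640 bases of GIP2, annotated on the other strand. The libraries were strand-specific, yet the strand setting of the counting is not given in the sources used here, so reads of the pair may be mixed. GIP2 was not called between the genotypes in any of the 4 conditions (adjusted p from 0.145 to 0.743).

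The genes of salicylate synthesis differed unequally between the genotypes in the controls. ICS1, the synthase, read 8.04, 9.84 and 10.7 CPM in exa1-1 in MS, against 9.32, 8.59 and 9.60 CPM in the wild type, and the genotypes overlapped (log2 fold change 0.065 with an SE of 0.11, adjusted p = 0.674). At 23 °C ICS1 read 6.04, 5.70 and 5.73 CPM in exa1-1, against 8.16, 6.47 and 6.78 CPM in the wild type. Every exa1-1 library lay below every wild-type library there, without a call (log2 fold change −0.29 with an SE of 0.16, adjusted p = 0.144). EDS5, the transporter, read 22.6, 21.2 and 21.3 CPM in exa1-1 in MS, against 21.1, 21.1 and 21.1 CPM in the wild type (log2 fold change 0.047 with an SE of 0.073, adjusted p = 0.656), just above and without a call. At 23 °C EDS5 was lower in exa1-1, with 8.86, 6.78 and 6.32 CPM, against 9.80, 9.60 and 9.05 CPM in the wild type (log2 fold change −0.37 with an SE of 0.13, adjusted p = 0.0234). That call was lost when any 1 of 4 of the 6 libraries was left out, with adjusted p up to 0.177, and under DESeq2 (log2 fold change −0.35, adjusted p = 0.0620). PBS3, the glutamate-joining enzyme, differed far more. It read 1.09, 1.49 and 1.90 CPM in exa1-1 in MS, against 4.60, 4.92 and 5.10 CPM in the wild type (log2 fold change −1.68 with an SE of 0.18, adjusted p = 8.30e-10). At 23 °C PBS3 read 1.79, 1.77 and 1.52 CPM in exa1-1, against 5.67, 5.56 and 7.17 CPM in the wild type (log2 fold change −1.85 with an SE of 0.23, adjusted p = 2.48e-09). Every exa1-1 library lay below every wild-type library for PBS3 in both controls. FMO1, of the N-hydroxypipecolate branch, read 1.13, 0.498 and 0.989 CPM in exa1-1 in MS, against 1.77, 1.61 and 2.23 CPM in the wild type (log2 fold change −1.08 with an SE of 0.29, adjusted p = 0.00310). At 23 °C it read 0.940, 1.03 and 0.490 CPM in exa1-1, against 4.48, 3.59 and 4.85 CPM in the wild type (log2 fold change −2.38 with an SE of 0.26, adjusted p = 5.10e-11). FMO1 rests on few counts in the mutant, 21, 21 and 10 per library at 23 °C.

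Of the genes of secreted proteins, 2 were lower in exa1-1 in both controls and the third was higher in MS. PR1, the marker gene of salicylate responses, read 21.7, 20.7 and 23.0 CPM in exa1-1 in MS, against 54.0, 53.3 and 49.9 CPM in the wild type (log2 fold change −1.26 with an SE of 0.058, adjusted p = 1.02e-20). At 23 °C PR1 read 26.5, 30.7 and 32.0 CPM in exa1-1, against 39.8, 45.5 and 48.9 CPM in the wild type (log2 fold change −0.59 with an SE of 0.082, adjusted p = 3.76e-08). The genotypes were apart in both controls. The difference was smaller at 23 °C by a test of its own (log2 fold change 0.68 with an SE of 0.10, adjusted p = 2.01e-07). BGL2, the glucanase gene, read 0.889, 0.913 and 0.875 CPM in exa1-1 in MS, against 4.79, 4.84 and 4.50 CPM in the wild type. That was 19.2% of the wild-type level (log2 fold change −2.38 with an SE of 0.18, adjusted p = 1.25e-13). At 23 °C BGL2 read 2.33, 2.75 and 2.16 CPM in exa1-1, against 6.32, 7.33 and 7.57 CPM in the wild type (log2 fold change −1.55 with an SE of 0.20, adjusted p = 5.00e-09). PR5, the thaumatin-like gene, went the other way. It read 12.2, 12.1 and 11.9 CPM in exa1-1 in MS, against 5.47, 6.41 and 6.43 CPM in the wild type, without overlap (log2 fold change 0.99 with an SE of 0.11, adjusted p = 3.24e-09). At 23 °C PR5 read 7.61, 7.86 and 8.04 CPM in exa1-1, against 6.37, 5.00 and 6.92 CPM in the wild type, a difference that was not called (log2 fold change 0.36 with an SE of 0.16, adjusted p = 0.0788). In a fit of all 24 libraries it was called (log2 fold change 0.36, adjusted p = 0.0368).

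**Figure D2:**
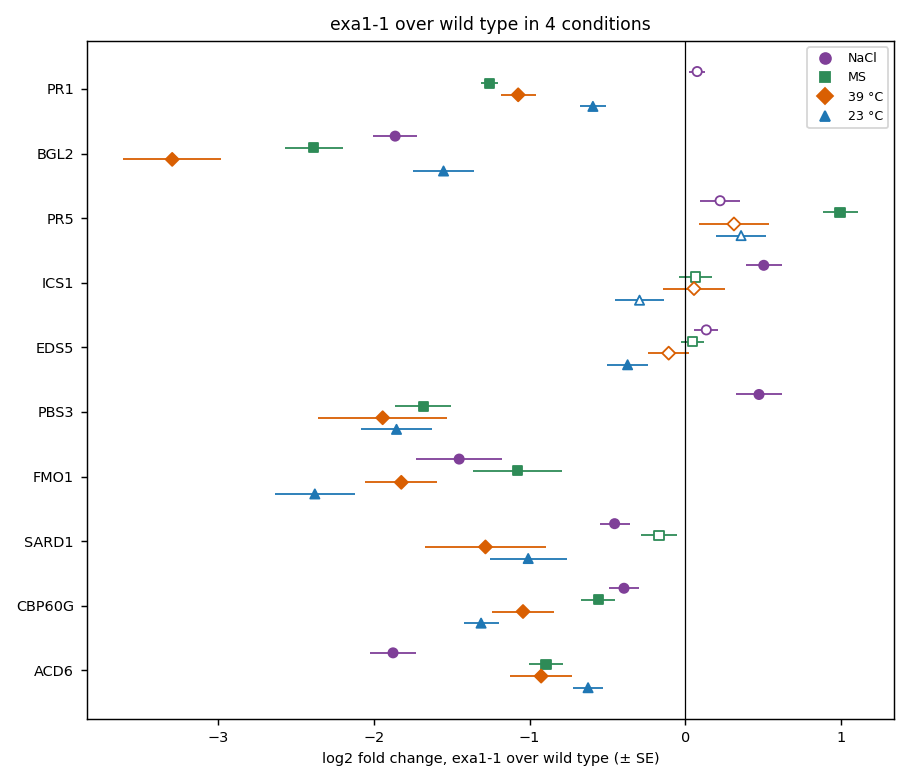
Log2 fold change of exa1-1 over the wild type with its SE (x axis) for each of the 10 genes in 4 conditions; filled symbols passed an adjusted p of 0.05 and open ones did not. BGL2, FMO1, CBP60G and ACD6 lie left of 0 in all 4 conditions, PBS3 lies right of 0 in NaCl and near −1.68 to −1.94 elsewhere, and PR5 lies right of 0.

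Salt for 60 min raised SARD1, CBP60G and BGL2 and lowered ACD6 in both genotypes. PR1 and PBS3 rose in exa1-1, where they had been low, without a call in wild-type seedlings, so that the genotypes stood close in NaCl for PR1. In exa1-1 5 of the 10 were higher and 2 lower in NaCl than in MS, against 35.9% and 37.2% of all genes. In the wild type 4 were higher and 3 lower, against 36.5% and 35.4%. Whether the salt response differed between the genotypes was tested as an interaction, positive where NaCl over MS was larger in exa1-1. It was positive for 3 of the 10 and negative for 2, against 10.6% and 9.36% of all genes. With library totals alone the median of all genes moved to −0.20 in exa1-1 and −0.15 in the wild type, against −0.025 and 0.00033 with TMM. By that scaling 27.3% of all genes were higher and 48.3% lower in exa1-1 and 28.8% and 44.4% in the wild type. The 10 genes then split into 5 higher and 3 lower in exa1-1 and 3 higher and 3 lower in the wild type.

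PR1 read 59.3, 54.7 and 56.95 CPM in exa1-1 in NaCl, against 21.7, 20.7 and 23.0 CPM in exa1-1 in MS (log2 fold change 1.37 with an SE of 0.058, adjusted p = 1.08e-23). Wild-type seedlings had 54.5, 53.4 and 54.3 CPM in NaCl, against 54.0, 53.3 and 49.9 CPM in MS (log2 fold change 0.038 with an SE of 0.053, adjusted p = 0.525), which overlapped. With library totals alone that difference turned to log2 fold change −0.11, adjusted p = 0.0721, again not called. The interaction of PR1 was log2 fold change 1.33 with an SE of 0.078, adjusted p = 1.40e-16. In NaCl the exa1-1 libraries lay just above those of the wild type without a call (log2 fold change 0.076 with an SE of 0.053, adjusted p = 0.291). PBS3 had the widest interaction of the 10 (log2 fold change 2.16 with an SE of 0.23, adjusted p = 2.88e-09). It read 5.78, 6.70 and 7.39 CPM in exa1-1 in NaCl, against 1.50 ± 0.405 CPM in exa1-1 in MS (mean ± SD, n = 3, log2 fold change 2.12 with an SE of 0.17, adjusted p = 4.17e-14). The wild type had PBS3 at 5.45, 4.93 and 3.96 CPM in NaCl, against 4.88 ± 0.252 CPM in MS (mean ± SD, n = 3, log2 fold change −0.033 with an SE of 0.15, adjusted p = 0.852). PBS3 was then higher in exa1-1 than in the wild type in NaCl (log2 fold change 0.47 with an SE of 0.15, adjusted p = 0.0115). That higher call was lost without exa1-1 NaCl replicate 3 (adjusted p = 0.0821) or wild-type NaCl replicate 3 (adjusted p = 0.103).

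BGL2 rose with salt in both genotypes and was lower in exa1-1 in both media. It read 2.21, 3.10 and 3.07 CPM in exa1-1 in NaCl, against 0.892 ± 0.0193 CPM in exa1-1 in MS (mean ± SD, n = 3, log2 fold change 1.63 with an SE of 0.21, adjusted p = 3.93e-09). The wild type had 10.0, 10.8 and 9.77 CPM in NaCl, against 4.71 ± 0.183 CPM in MS (mean ± SD, n = 3, log2 fold change 1.11 with an SE of 0.13, adjusted p = 3.25e-10). The interaction of BGL2 was not called (log2 fold change 0.52 with an SE of 0.25, adjusted p = 0.137). PR5 fell in exa1-1, with 7.80, 7.61 and 5.87 CPM in NaCl, against 12.0 ± 0.152 CPM in MS (mean ± SD, n = 3, log2 fold change −0.78 with an SE of 0.11, adjusted p = 6.98e-08). In the wild type PR5 read 6.90, 5.44 and 5.91 CPM in NaCl, overlapping MS (log2 fold change −0.0093 with an SE of 0.13, adjusted p = 0.951). The genotypes differed in this response (log2 fold change −0.77 with an SE of 0.17, adjusted p = 8.08e-04).

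The regulators SARD1 and CBP60G rose with salt alike in direction in both genotypes. SARD1 read 9.96, 11.6 and 12.3 CPM in exa1-1 in NaCl, against 5.99 ± 0.219 CPM in exa1-1 in MS (mean ± SD, n = 3, log2 fold change 0.90 with an SE of 0.11, adjusted p = 8.72e-10). Wild-type seedlings had SARD1 at 16.5, 14.9 and 15.1 CPM in NaCl, against 6.80 ± 0.510 CPM in MS (mean ± SD, n = 3, log2 fold change 1.18 with an SE of 0.10, adjusted p = 1.45e-13). CBP60G read 13.4, 14.0 and 13.1 CPM in exa1-1 in NaCl (log2 fold change 1.11 with an SE of 0.11, adjusted p = 3.15e-12). The wild type had CBP60G at 17.1, 15.9 and 20.5 CPM in NaCl (log2 fold change 0.94 with an SE of 0.10, adjusted p = 2.67e-11). All NaCl libraries lay above all MS libraries of their genotype for both genes. Neither had an interaction call (SARD1 log2 fold change −0.28, adjusted p = 0.187, CBP60G log2 fold change 0.17, adjusted p = 0.475). ACD6 fell, to 2.12, 2.42 and 2.71 CPM in exa1-1 in NaCl (log2 fold change −1.66 with an SE of 0.15, adjusted p = 2.79e-13). It also fell in the wild type, to 9.98, 8.64 and 8.10 CPM in NaCl (log2 fold change −0.68 with an SE of 0.11, adjusted p = 5.59e-07). The fall of ACD6 was larger in exa1-1 (log2 fold change −0.98 with an SE of 0.19, adjusted p = 1.13e-04).

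ICS1 and EDS5 moved little with salt in exa1-1. ICS1 read 9.17, 8.89 and 9.79 CPM in exa1-1 in NaCl (log2 fold change −0.054 with an SE of 0.11, adjusted p = 0.662). In wild-type seedlings ICS1 read 6.27, 7.17 and 6.20 CPM in NaCl, where it fell (log2 fold change −0.49 with an SE of 0.12, adjusted p = 2.38e-04). The interaction of ICS1 (log2 fold change 0.44 with an SE of 0.16, adjusted p = 0.0437) lost its call without any 1 of 8 of the 12 libraries, with adjusted p up to 0.147. It was also not called under DESeq2 (log2 fold change 0.45, adjusted p = 0.0783), in a fit of all 24 libraries (log2 fold change 0.45, adjusted p = 0.0671) or with library totals alone (log2 fold change 0.41, adjusted p = 0.0662). EDS5 read 19.3, 20.5 and 21.7 CPM in exa1-1 in NaCl (log2 fold change −0.094 with an SE of 0.074, adjusted p = 0.254). Scaled by library totals it was called lower (log2 fold change −0.27, adjusted p = 0.00163). So it was on log2(FPKM + 1) (log2 fold change −0.25, adjusted p = 0.00560), which divides by the same library totals and is no separate check of the scaling. EDS5 in the wild type read 16.5, 20.4 and 19.2 CPM in NaCl (log2 fold change −0.18 with an SE of 0.076, adjusted p = 0.0317). FMO1 read 0.517, 1.09 and 1.38 CPM in exa1-1 in NaCl (log2 fold change 0.18 with an SE of 0.33, adjusted p = 0.635). In wild-type seedlings FMO1 read 3.28, 2.38 and 2.62 CPM in NaCl (log2 fold change 0.55 with an SE of 0.25, adjusted p = 0.0433). The wild-type calls of EDS5 and FMO1 were each lost without any 1 of 4 of the 6 libraries, with adjusted p up to 0.284 for EDS5 and 0.192 for FMO1. Neither was called under DESeq2 (log2 fold change −0.19, adjusted p = 0.0676 for EDS5 and log2 fold change 0.55, adjusted p = 0.110 for FMO1). FMO1 was also not called with library totals alone (log2 fold change 0.40, adjusted p = 0.138).

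With the seedlings in NaCl, 5 of the 10 genes were called lower in exa1-1 and 2 higher, against 17.1% and 15.3% of all genes. ACD6 (log2 fold change −1.88 with an SE of 0.15, adjusted p = 1.07e-13) and BGL2 (log2 fold change −1.86 with an SE of 0.14, adjusted p = 3.82e-14) had the largest differences. FMO1 was lower as well (log2 fold change −1.45 with an SE of 0.28, adjusted p = 6.30e-05). The 2 related regulators differed less, SARD1 with log2 fold change −0.45 with an SE of 0.10, adjusted p = 2.40e-04 and CBP60G with log2 fold change −0.39 with an SE of 0.094, adjusted p = 0.00102. ICS1, the synthase, was higher in exa1-1, without overlap (log2 fold change 0.50 with an SE of 0.12, adjusted p = 7.24e-04). EDS5 (log2 fold change 0.13, adjusted p = 0.188) and PR5 (log2 fold change 0.22, adjusted p = 0.179) overlapped between the genotypes and were not called.

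**Figure D3:**
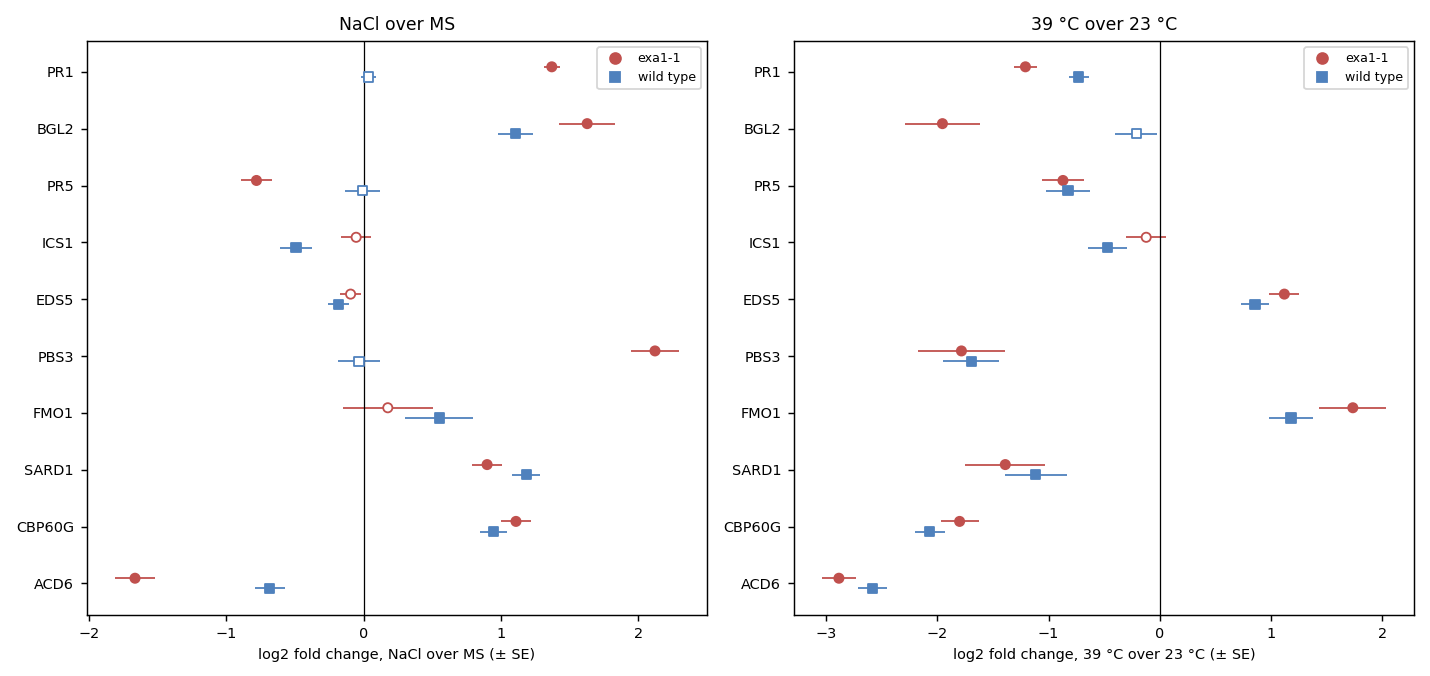
Log2 fold change with its SE (x axis) of NaCl over MS (left) and of 39 °C over 23 °C (right) for each of the 10 genes in exa1-1 (circles) and wild type (squares); filled symbols passed an adjusted p of 0.05. In salt PR1 and PBS3 lie near 0 in the wild type and at 1.37 and 2.12 in exa1-1, and in heat ACD6 lies farthest left in both genotypes, at −2.88 in exa1-1 and −2.58 in the wild type.

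Heat for 60 min lowered most of the 10 genes in both genotypes, ACD6 and CBP60G by the largest factors in the wild type, while EDS5 and FMO1 were higher relative to the other genes with TMM. With library totals alone EDS5 in the wild type had the opposite sign and neither gene was called there. In exa1-1 7 of the 10 were lower and 2 higher at 39 °C than at 23 °C, against 41.4% and 38.0% of all genes. In the wild type 7 were lower and 2 higher, against 42.3% and 38.2%. The scaling sets the zero of these changes. With library totals alone the median of all genes was −1.05 in exa1-1 and −1.002 in the wild type, against −0.10 and −0.10 with TMM. Of the 10, 1 gene was then higher and 8 lower in exa1-1, and all 8 called in the wild type were lower. By that scaling 13.8% of all genes were higher and 74.9% lower in exa1-1 and 14.4% and 74% in the wild type. The changes given here are relative to the TMM zero unless another scaling is named.

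ACD6 read 3.32, 2.79 and 2.82 CPM in exa1-1 at 39 °C, against 22.1 ± 0.959 CPM in exa1-1 at 23 °C (mean ± SD, n = 3, log2 fold change −2.88 with an SE of 0.15, adjusted p = 3.24e-24). Wild-type seedlings had 7.15, 5.85 and 3.97 CPM at 39 °C, against 34.0 ± 1.51 CPM at 23 °C (mean ± SD, n = 3, log2 fold change −2.58 with an SE of 0.13, adjusted p = 1.91e-25). CBP60G read 2.93, 3.37 and 2.43 CPM in exa1-1 at 39 °C (log2 fold change −1.80 with an SE of 0.17, adjusted p = 6.62e-14). In wild-type seedlings CBP60G read 6.05, 6.97 and 5.01 CPM at 39 °C (log2 fold change −2.07 with an SE of 0.13, adjusted p = 4.17e-20). For both genes every library at 39 °C lay below every library at 23 °C of its genotype. SARD1 read 0.391, 1.16 and 1.07 CPM in exa1-1 at 39 °C (log2 fold change −1.39 with an SE of 0.36, adjusted p = 4.85e-04). SARD1 in the wild type read 1.38, 3.06 and 1.98 CPM at 39 °C (log2 fold change −1.11 with an SE of 0.28, adjusted p = 3.17e-04). PBS3 read 0.586, 0.289 and 0.584 CPM in exa1-1 at 39 °C, from 6, 3 and 6 counts per library (log2 fold change −1.78 with an SE of 0.39, adjusted p = 5.39e-05). In the wild type PBS3 read 1.56, 2.14 and 1.98 CPM at 39 °C (log2 fold change −1.69 with an SE of 0.25, adjusted p = 3.37e-08). GIP2, which overlaps SARD1, fell too (log2 fold change −0.95, adjusted p = 2.02e-05 in exa1-1 and log2 fold change −0.58, adjusted p = 0.00534 in the wild type).

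PR1 fell in both genotypes, to 14.7, 12.9 and 10.9 CPM in exa1-1 at 39 °C (log2 fold change −1.21 with an SE of 0.10, adjusted p = 2.08e-15). The wild type at 39 °C had PR1 at 26.9, 26.5 and 27.7 CPM (log2 fold change −0.73 with an SE of 0.089, adjusted p = 1.85e-10). The fall was larger in exa1-1 (log2 fold change −0.48 with an SE of 0.14, adjusted p = 0.0110), a call that was lost without exa1-1 39 °C replicate 3 (adjusted p = 0.0805). BGL2 was the other gene whose response to heat differed between the genotypes (log2 fold change −1.74 with an SE of 0.40, adjusted p = 0.00119). It read 0.293, 0.867 and 0.681 CPM in exa1-1 at 39 °C, from 3, 9 and 7 counts per library (log2 fold change −1.95 with an SE of 0.34, adjusted p = 1.00e-06). The wild type held 6.88, 5.11 and 6.33 CPM of BGL2 at 39 °C, overlapping 23 °C (log2 fold change −0.21 with an SE of 0.19, adjusted p = 0.303). Those 2 were the only genes of the 10 with a heat interaction, both negative, against 8.10% negative and 8.78% positive of all genes. On log2(FPKM + 1), where genes of low level weigh less, the interaction of BGL2 was not called (log2 fold change −0.31, adjusted p = 0.219). On that scale those of PBS3 (log2 fold change 0.69, adjusted p = 0.00623) and CBP60G (log2 fold change 0.60, adjusted p = 0.0124) were called positive, so the direction of PBS3 changed with the scale. PR5 read 3.52, 5.01 and 4.28 CPM in exa1-1 at 39 °C (log2 fold change −0.87 with an SE of 0.19, adjusted p = 4.25e-05). PR5 in the wild type read 2.57, 3.81 and 3.97 CPM at 39 °C (log2 fold change −0.82 with an SE of 0.20, adjusted p = 2.06e-04), lower than at 23 °C in both. At 39 °C the BGL2 level in exa1-1 was 10.2% of that in the wild type (log2 fold change −3.29 with an SE of 0.31, adjusted p = 1.59e-12).

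EDS5 read 16.4, 15.0 and 16.3 CPM in exa1-1 at 39 °C, against 7.32 ± 1.35 CPM in exa1-1 at 23 °C (mean ± SD, n = 3, log2 fold change 1.12 with an SE of 0.13, adjusted p = 1.13e-10). Wild-type libraries held EDS5 at 16.1, 20.0 and 15.4 CPM at 39 °C, against 9.48 ± 0.389 CPM at 23 °C (mean ± SD, n = 3, log2 fold change 0.86 with an SE of 0.13, adjusted p = 4.66e-08). Its counts per library were 168, 156 and 168 at 39 °C and 198, 138 and 129 at 23 °C in exa1-1. Scaled by totals alone, the change of EDS5 was log2 fold change 0.16, adjusted p = 0.255 in exa1-1 and log2 fold change −0.051, adjusted p = 0.715 in the wild type, neither called, and of opposite signs. EDS5 overlaps 213 bases of its neighbour AT4G39040 on the other strand, which rose with heat in exa1-1 (log2 fold change 1.24, adjusted p = 9.63e-30) and in the wild type (log2 fold change 1.25, adjusted p = 4.34e-30). FMO1 read 3.62, 2.31 and 2.34 CPM in exa1-1 at 39 °C (log2 fold change 1.73 with an SE of 0.30, adjusted p = 8.60e-07). In wild-type seedlings FMO1 read 9.08, 10.0 and 10.2 CPM at 39 °C (log2 fold change 1.18 with an SE of 0.20, adjusted p = 4.80e-07). With totals alone FMO1 kept its call in exa1-1 (log2 fold change 0.78, adjusted p = 0.0142) and lost it in the wild type (log2 fold change 0.27, adjusted p = 0.186). ICS1 read 6.06, 5.30 and 4.67 CPM in exa1-1 at 39 °C (log2 fold change −0.12 with an SE of 0.18, adjusted p = 0.530). In wild-type seedlings ICS1 read 5.04, 5.85 and 4.53 CPM at 39 °C (log2 fold change −0.47 with an SE of 0.18, adjusted p = 0.0128). The wild-type call was lost without wild-type 23 °C replicate 1 (adjusted p = 0.0853) or 39 °C replicate 3 (adjusted p = 0.0713). With totals alone ICS1 in exa1-1 was also called lower (log2 fold change −1.08, adjusted p = 2.20e-07), as was BGL2 in the wild type (log2 fold change −1.12, adjusted p = 3.64e-07).

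At 39 °C 7 of the 10 genes were called lower in exa1-1, against 13.7% of all genes. Beside BGL2 (described with heat) PBS3 (log2 fold change −1.94 with an SE of 0.41, adjusted p = 1.93e-04) and FMO1 (log2 fold change −1.82 with an SE of 0.23, adjusted p = 7.36e-09) differed most. PR1, the marker gene, was also lower (log2 fold change −1.07 with an SE of 0.11, adjusted p = 2.70e-11). The regulator CBP60G (log2 fold change −1.04 with an SE of 0.20, adjusted p = 3.87e-05) and the ankyrin protein gene ACD6 (log2 fold change −0.93 with an SE of 0.20, adjusted p = 2.16e-04) were lower too. SARD1 also differed (log2 fold change −1.28 with an SE of 0.39, adjusted p = 0.00934). It was not called without exa1-1 39 °C replicate 1 (adjusted p = 0.0882) or wild-type 39 °C replicate 2 (adjusted p = 0.123). PR5 (log2 fold change 0.31, adjusted p = 0.329), ICS1 (log2 fold change 0.056, adjusted p = 0.873) and EDS5 (log2 fold change −0.11, adjusted p = 0.598) overlapped between the genotypes and were not called.

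**Figure D4:**
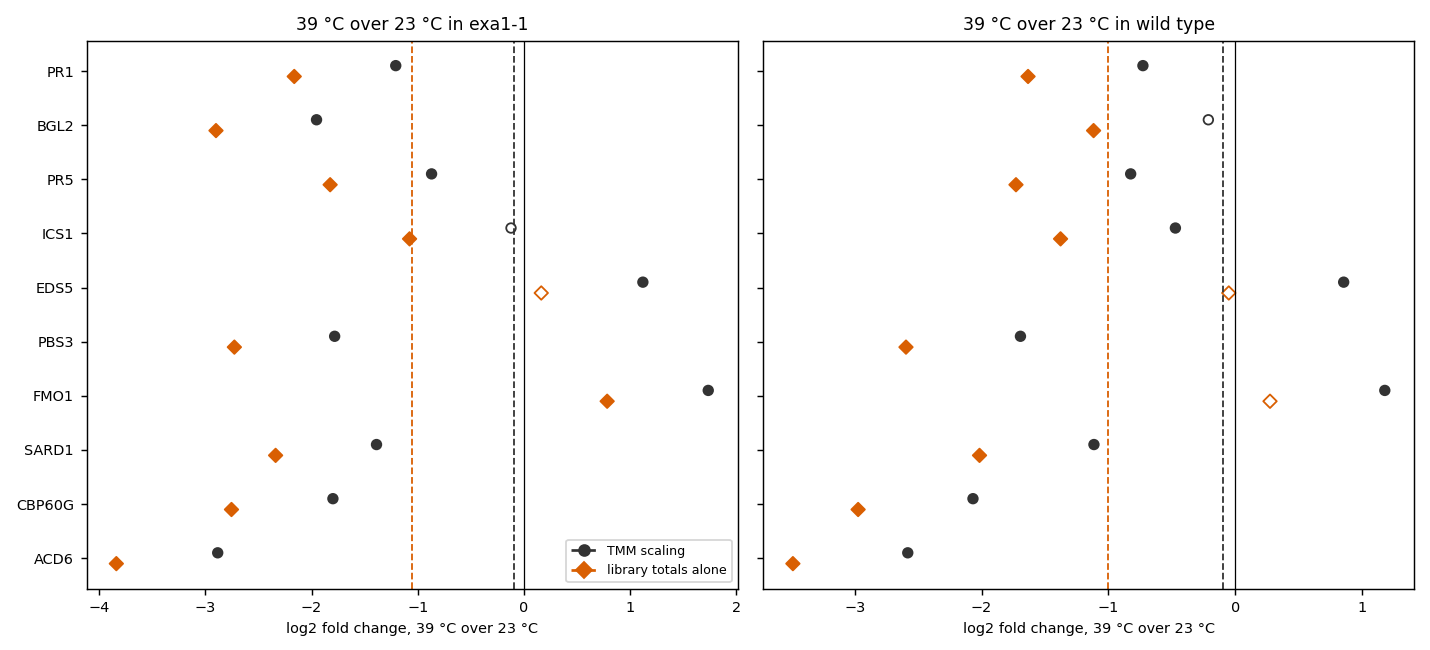
Log2 fold change of 39 °C over 23 °C for each of the 10 genes in exa1-1 (left) and wild type (right) with TMM scaling (circles) and with library totals alone (diamonds); dashed lines mark the median of all genes under each scaling, and open symbols did not pass an adjusted p of 0.05. All 10 genes move left together with library totals alone, and EDS5 then lies at 0.16 in exa1-1 and −0.051 in the wild type.

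The 2 controls, 23 °C and MS, were compared with each other, since the design describes both as normal growth. What else set the salt and heat experiments apart is not given in the sources used here, so the labelled condition and the experiment cannot be told apart. In exa1-1 4 of the 10 genes were higher and 4 lower at 23 °C than in MS, against 33.1% and 33.6% of all 21917 genes tested. In the wild-type seedlings 4 were higher and 4 lower, against 33.3% and 32.8%. These counts of the 10 were near the shares of all genes. The shoot markers summed to 24752 to 25822 CPM in exa1-1 at 23 °C, against 6793 to 7325 CPM in exa1-1 in MS. Their sum in the wild type was 28284 to 29044 CPM at 23 °C, against 9935 to 10448 CPM in MS, and the part of this in the results was not tested. ACD6 was higher at 23 °C in exa1-1 (log2 fold change 1.54, adjusted p = 6.36e-20) and in the wild type (log2 fold change 1.26, adjusted p = 5.09e-18). So was CBP60G (log2 fold change 0.72, adjusted p = 3.11e-07 in exa1-1 and log2 fold change 1.45, adjusted p = 1.07e-19 in the wild type). EDS5 was lower at 23 °C in both (log2 fold change −1.56, adjusted p = 3.21e-21 in exa1-1 and log2 fold change −1.15, adjusted p = 3.76e-16 in the wild type). SARD1 was lower as well (log2 fold change −1.37, adjusted p = 3.12e-10 in exa1-1 and log2 fold change −0.55, adjusted p = 0.00140 in the wild type). PR1 was higher at 23 °C in exa1-1 (log2 fold change 0.45, adjusted p = 3.49e-07) and lower in the wild type (log2 fold change −0.23, adjusted p = 0.00188). Scaling by totals alone moved the median of all genes to −0.33 in exa1-1 and −0.23 in the wild type. By it 20.3% of all genes were higher and 51.8% lower in exa1-1 and 23.8% and 45.7% in the wild type. The rise of PR1 in exa1-1 was then not called (log2 fold change 0.13, adjusted p = 0.0991). Its fall in the wild type lost its call without wild-type 23 °C replicate 1 (adjusted p = 0.0512).

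The difference between exa1-1 and the wild type was not the same in the 2 controls. Tested as exa1-1 over wild type at 23 °C over the same in MS, 2 of the 10 genes had a positive value and 5 a negative one, against 16.3% and 12.3% of all genes (11% and 17.9% with library totals alone). A positive value of BGL2 (log2 fold change 0.84 with an SE of 0.28, adjusted p = 0.0170), which was lower in exa1-1 in both controls, stands for a smaller fall at 23 °C. The values of FMO1 (log2 fold change −1.29 with an SE of 0.41, adjusted p = 0.0121) and SARD1 (log2 fold change −0.82 with an SE of 0.23, adjusted p = 0.00521) were negative, a lower exa1-1 level relative to the wild type at 23 °C. So was that of EDS5 (log2 fold change −0.40 with an SE of 0.14, adjusted p = 0.0281). PR5, higher in exa1-1 in MS, also had a negative value (log2 fold change −0.62 with an SE of 0.19, adjusted p = 0.00956). The call of EDS5 was lost without any 1 of 5 of the 12 libraries, with adjusted p up to 0.127. That of FMO1 was lost without exa1-1 23 °C replicate 3 (adjusted p = 0.0588) or MS replicate 1 (adjusted p = 0.0743). That of BGL2 was lost without exa1-1 23 °C replicate 2 (adjusted p = 0.0558). The comparisons within the 4 control groups share libraries with those of salt and heat.

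Among themselves the 10 genes were compared by the root-mean-square difference of their profiles, log2 CPM averaged by group and centred over the 8 groups, where 0 means the same shape. PR5 and ICS1 were the nearest pair at 0.36, followed by PR1 and CBP60G at 0.48, ICS1 and EDS5 at 0.48, and PR1 and PBS3 at 0.49. SARD1 and CBP60G, the related factors, were at 0.90. Outside the 10, genes near to PR1 of the 21917 compared included AT5G19230 at 0.23 and AT1G32928 at 0.25. Nearest to ICS1 were AT2G25737 at 0.10, AT2G31740 at 0.10 and TBL18 at 0.12, and nearest to SARD1 were MAPKKK19 at 0.23, NAC047 at 0.23 and XTH10 at 0.23. Such a distance is also small where both profiles are flat. The root-mean-square of the centred profile itself was 0.34 for ICS1, 0.71 for PR1 and 1.27 for SARD1. The distance of 0.36 between PR5 and ICS1 thus exceeds the spread of ICS1 and does not show a shared pattern. Distances of genes with unlike spread cannot be ranked against each other. All are descriptions over 8 group means.

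The rest of the pathway comprised 63 genes in 7 lists. In MS 21 of the 59 tested were lower in exa1-1 and 7 higher, against 19.5% and 16.5% of all genes. At 23 °C 22 of the 57 tested were lower and 8 higher, against 17.8% and 17.1%. In NaCl 22 of 59 were lower and 14 higher, against 17.1% and 15.3%. At 39 °C 17 of 57 were lower and 3 higher, against 13.7% and 15.2%. The counts of the single lists that follow rest on 2 to 12 genes each and are descriptions. The median log2 fold change was −0.086 in MS and −0.22 at 23 °C. Of the genes that convert salicylate, 5 of 7 were lower in exa1-1 in MS and 4 of 7 at 23 °C. They included the salicylate hydroxylase genes AT4G10500, also called DLO1, with log2 fold change −1.59, adjusted p = 6.96e-07 in MS and log2 fold change −1.76, adjusted p = 3.85e-05 at 23 °C. The other was DMR6, with log2 fold change −1.19, adjusted p = 1.93e-13 in MS and log2 fold change −0.99, adjusted p = 1.93e-14 at 23 °C. Of the transcription factors, 5 of 11 were lower and 1 higher in exa1-1 in MS, with a median log2 fold change of 0.014. In NaCl 5 of 11 were lower and 2 higher. At 23 °C 6 of 10 were lower and at 39 °C 2 of 10, with 0 higher in either. Among them WRKY70, a known node between salicylate and jasmonate, was lower in exa1-1 in all 4 conditions. Its values ran from log2 fold change −0.78, adjusted p = 1.98e-10 in NaCl to log2 fold change −1.49, adjusted p = 1.87e-11 at 39 °C. Its relative WRKY54 was lower in NaCl (log2 fold change −0.49, adjusted p = 0.0415), in MS (log2 fold change −0.77, adjusted p = 4.31e-05) and at 23 °C (log2 fold change −1.13, adjusted p = 1.85e-04).

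Of the upstream signalling genes, 2 of 10 were lower and 2 higher in exa1-1 in MS, near the shares of all genes. At 23 °C 1 of 10 was lower and 1 higher, against 17.8% and 17.1% of all genes. In NaCl 5 of 10 were lower and 1 higher, against 17.1% and 15.3% of all genes. At 39 °C 3 of 10 were lower and 0 higher, against 13.7% and 15.2%. PAD4, which acts with EDS1 upstream of salicylate, was lower at 23 °C (log2 fold change −1.17, adjusted p = 3.02e-08), while ADR1, a helper immune receptor gene, was higher (log2 fold change 0.79, adjusted p = 5.79e-08). Of the receptors and their partners, 2 of 12 were lower and 2 higher in MS, near the shares of all genes (19.5% and 16.5%). Those lower were NIMIN-2, for an NPR1-binding protein (log2 fold change −1.10, adjusted p = 7.39e-06), and the receptor gene NPR3 (log2 fold change −0.43, adjusted p = 7.43e-06). Of the same list 5 of 12 were lower and 1 higher at 23 °C, against 17.8% and 17.1% of all genes. In NaCl 3 of 12 were lower and 3 higher, against 17.1% and 15.3%. At 39 °C 3 of 12 were lower and 0 higher, against 13.7% and 15.2%. The other genes of synthesis did not share the falls. At 23 °C 4 of 7 were higher, against 17.1% of all genes. In MS 1 was higher and 1 lower, against 16.5% and 19.5% of all genes. PAL1, of the phenylalanine route, was higher in exa1-1 at 23 °C (log2 fold change 0.39, adjusted p = 1.18e-09). Of the other salicylate-responsive and PR family genes, 5 of 10 were lower and 1 higher in MS, against 19.5% and 16.5% of all genes. In NaCl 3 of 10 were lower and 4 higher, against 17.1% and 15.3%. At 23 °C 5 of 9 were lower and 2 higher, against 17.8% and 17.1%. At 39 °C 4 of 9 were lower and 1 higher, against 13.7% and 15.2%. The glutaredoxin gene GRX480 was lower in exa1-1 in MS (log2 fold change −1.81, adjusted p = 8.48e-06) and PR4, for a hevein-like protein, was higher (log2 fold change 0.67, adjusted p = 1.75e-16). ALD1, the aminotransferase gene of N-hydroxypipecolate synthesis, averaged 0.195 CPM in exa1-1 at 23 °C, against 0.932 CPM in the wild type (log2 fold change −2.24, adjusted p = 0.00111). The other gene of that list was lower in exa1-1 in MS. Of the related copies that could share reads with a gene described here, ICS2 averaged 1.07 CPM in exa1-1 in MS, against 1.42 CPM in the wild type. In NaCl it averaged 8.61 CPM in exa1-1 and 8.12 CPM in the wild type, where ICS1 averaged 9.28 and 6.55 CPM. BG3 averaged 0.370 CPM in exa1-1 in MS, against 0.553 CPM in the wild type. PRB1, of the PR family, averaged 4.61 CPM in exa1-1 in MS. AT2G21340, also called EDS5H, averaged 78.6 CPM in exa1-1 and 58.6 CPM in the wild type at 39 °C. It rose with heat, as EDS5 did with TMM (log2 fold change 1.68, adjusted p = 1.05e-27 in exa1-1 and log2 fold change 1.46, adjusted p = 3.29e-24 in the wild type). Whether reads were shared was not tested.

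Of the 59 other genes tested, 33 were higher and 14 lower in NaCl than in MS in exa1-1, against 35.9% and 37.2% of all genes. Wild-type seedlings had 34 higher and 14 lower, against 36.5% and 35.4%. ICS2, the second isochorismate synthase gene, rose in exa1-1 (log2 fold change 2.99, adjusted p = 4.40e-20) and in the wild type (log2 fold change 2.50, adjusted p = 5.44e-18), unlike ICS1. PAL3 fell in exa1-1 (log2 fold change −3.33, adjusted p = 1.14e-27) and in the wild type (log2 fold change −2.56, adjusted p = 3.65e-24). The salicylate glucosyltransferase gene UGT74F2 rose in exa1-1 (log2 fold change 2.46, adjusted p = 2.99e-37) and in the wild type (log2 fold change 2.43, adjusted p = 4.46e-37). Of the transcription factors, 9 of 11 rose and 2 fell in each genotype, WRKY46 among them (log2 fold change 2.84, adjusted p = 3.63e-23 in exa1-1 and log2 fold change 2.57, adjusted p = 6.83e-23 in the wild type). As with PR1 and PBS3, the response to salt was larger in exa1-1 for AT4G10500 (log2 fold change 1.39, adjusted p = 1.81e-04) and DMR6 (log2 fold change 1.16, adjusted p = 4.82e-10). Among the 59 there were 15 positive and 5 negative interactions, against 10.6% and 9.36% of all genes. Of the 57 tested for heat, 32 were lower and 11 higher at 39 °C in exa1-1, against 41.4% and 38.0% of all genes. In the wild type 29 were lower and 12 higher, against 42.3% and 38.2%. NDR1, for a membrane protein of receptor signalling, fell in exa1-1 (log2 fold change −3.24, adjusted p = 5.81e-09) and in the wild type (log2 fold change −2.42, adjusted p = 2.03e-07). NIMIN-2 fell in exa1-1 (log2 fold change −3.52, adjusted p = 6.30e-09) and in the wild type (log2 fold change −3.69, adjusted p = 1.04e-11). SOT12, a sulfotransferase gene, rose in exa1-1 (log2 fold change 1.60, adjusted p = 2.73e-20) and in the wild type (log2 fold change 1.24, adjusted p = 7.27e-16).

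**Figure D5:**
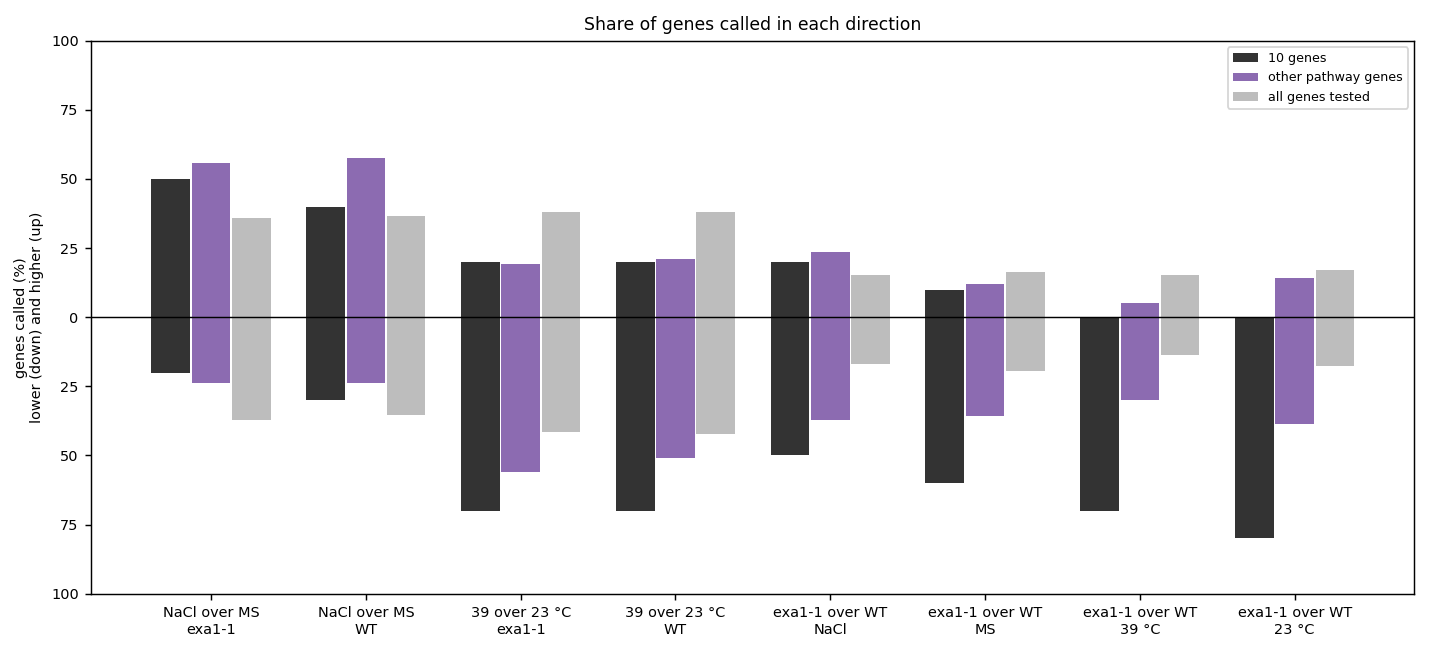
Share of genes called higher (above 0) and lower (below 0) at an adjusted p of 0.05, in percent of those tested, for the 10 genes (black), the other pathway genes (purple) and all genes tested (grey) in 8 comparisons. In the 4 comparisons of exa1-1 with the wild type the black bars reach 50% to 80% below 0, against 13.7% to 19.5% for all genes.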

How the data were processed

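Polysome-bound mRNA of 24 libraries, 3 for each of 8 groups, was analysed from the tables that the authors deposited. The submitters' processing notes name HISAT2 2.0.4 and HTSeq 0.6.1p1 as tools and TAIR10 as the genome build. The annotation release and the strand and overlap settings are not given in the sources used here. The authors deposited a table of raw counts for 32833 genes, 5150 of them without a count in any library. The authors also deposited FPKM for 27683 genes. FPKM and count were proportional within each library, with 1 factor per gene and the library total as divisor (relative difference at most 1.26e-09, checked on 17465 genes whose mean count was at least 50).

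Counts were tested with edgeR 4.0.16 in R 4.3.3. The filter filterByExpr used a minimum count of 10 and a minimum total of 15, libraries were scaled by TMM, and groups were compared by robust quasi-likelihood tests in fits of the 12 libraries of the salt experiment (21453 genes, biological coefficient of variation 0.0455), the 12 of the heat experiment (20923 genes, 0.0539) or, for 23 °C over MS, all 24 (21917 genes, 0.0491). There were 13 comparisons. Adjusted p-values are Benjamini-Hochberg values over all genes tested, and a gene was called at an adjusted p under 0.05. The scripts were tested on simulated data. Levels are CPM scaled by TMM over 24 libraries. FPKM was used to set levels of different genes side by side and in the limma alternatives named below.

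Alternatives were other scalings, DESeq2 1.42.0, limma 3.58.1 on log2(FPKM + 1) and log2(FPKM + 0.1) where the mean FPKM reached 0.5, other filters (every gene with a count, or at least 1 CPM in 6 libraries), a replicate block, a fit of all 24 libraries (for 23 °C over MS, of the 12 control libraries) and leaving out each library. No 2 libraries were identical (0 of 276 pairs). The labels number the replicates 1 to 3 in each group. Deviations of libraries with the same number correlated between −0.044 and 0.044, with 0 of 36 values over 0.1, so they were not treated as pairs.

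The members and the gene lists were chosen with earlier results of these data known. All 10 genes were tested in each comparison, and the values of some are not printed. Of each other list up to 3 genes per comparison were eligible to be named, those called with the largest absolute log2 fold change. Symbols and upstream windows come from RefSeq's annotation of TAIR10.1, in which all 83 listed genes were found. Some results on upstream windows and on genes with like profiles are not reported here. Figures were drawn with matplotlib 3.10.9, and tables were made in Python 3.11.15 (pandas 2.3.3).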

Additional observations from a re-analysis of the deposited data

Results flagged for a closer look

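For 5 of the 10 genes the response to salt differed between exa1-1 and the wild type by a test of the difference itself (edgeR interaction, log2 scale, NaCl over MS in exa1-1 minus the same in the wild type). PR1 had a difference of 1.33 and PBS3 of 2.16, and all 3 exa1-1 libraries in NaCl lay above all 3 in MS for both genes, while the wild-type libraries overlapped. Of all genes 10.6% had a positive and 9.36% a negative call. ICS1 had 0.44, a call that was lost without any 1 of 8 of the 12 libraries, under DESeq2, in a fit of all 24 libraries and with library totals alone. PR5 had −0.77 and ACD6 −0.98, with all 3 NaCl libraries of exa1-1 below all 3 in MS.

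For heat 2 genes were picked out by the same kind of test, where 8.10% of all genes were negative and 8.78% positive. The difference was −0.48 for PR1 and −1.74 for BGL2, and the 39 °C libraries of exa1-1 lay below those at 23 °C for both genes. PR1 lost its call without exa1-1 39 °C replicate 3. BGL2 rested on 3, 9 and 7 counts per library in exa1-1 at 39 °C and was not called on log2(FPKM + 1).

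The difference of exa1-1 from the wild type also depended on the control for 7 genes, tested as 23 °C minus MS, where 16.3% of all genes were positive and 12.3% negative. It was 0.68 for PR1, 0.84 for BGL2, −0.62 for PR5, −0.40 for EDS5, −1.29 for FMO1, −0.82 for SARD1 and −0.74 for CBP60G. Leaving out 1 library removed the call of EDS5 in 5 of 12 fits, of FMO1 in 2 and of BGL2 in 1. The MS and 23 °C groups come from 2 experiments, and the experiment and the control condition cannot be told apart.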

How the results depend on the processing

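Counts of called genes among the 10 stayed within 1.5 times under all 117 alternatives other than leaving out a library, and in 95 of 96 leave-one-out fits. The exception was the heat interaction, whose count ranged from 1 to 2 and was 1 without exa1-1 39 °C replicate 3. With the replicate block, which does not pair samples here, the calls were as without it for all 10 genes, for example 7 of 10 for salt in exa1-1 and 5 of 10 for the salt interaction. Of 1170 values of single genes, 1109 kept direction and call, 29 lost the call, 11 gained one and 21 reversed. Leaving out 1 library kept 891 of 960, with 37 lost, 3 gained and 29 reversed. No gene called with TMM reversed and kept a call. With library totals alone the reversed values were −0.11 for PR1 with salt in the wild type, −0.051 for EDS5 with heat in the wild type, and −0.14 for PBS3 in exa1-1 and −0.22 for PR5 in the wild type at 23 °C over MS. On log2(FPKM + 1), which also divides by library totals, the same 4 values were −0.11, −0.047, −0.051 and −0.20, and FMO1 with salt in exa1-1 was −0.0035. On that scale the heat interactions of PBS3, SARD1 and ACD6 were 0.69, 0.28 and 0.16. On log2(FPKM + 0.1) PR1, EDS5, PBS3, PR5 and FMO1 had −0.11, −0.058, −0.092, −0.23 and −0.020, and the heat interaction of PBS3 was 0.36. PR5 at 23 °C over MS in the wild type, near 0 with TMM, was −0.018 with RLE size factors, −0.019 with DESeq2 and −0.00047 without a filter. Leaving out 1 library moved values around 0 as follows. With salt in exa1-1 ICS1 ranged from −0.16 to 0.039 and FMO1 from −0.13 to 0.48; in the wild type PR5 ranged from −0.10 to 0.067 and PBS3 from −0.13 to 0.088. For exa1-1 over the wild type ICS1 ranged from −0.027 to 0.17 in MS and from −0.044 to 0.16 at 39 °C, and EDS5 from −0.18 to 0.014 at 39 °C. The heat interaction ranged from −0.22 to 0.074 for PR5, from −0.24 to 0.17 for PBS3 and from −0.53 to 0.074 for SARD1. At 23 °C over MS PBS3 and FMO1 in exa1-1 ranged from −0.0076 to 0.39 and from −0.36 to 0.17, PR5 in the wild type from −0.10 to 0.13, and the genotype difference of PBS3 from −0.34 to 0.059. The cause was not tested. Depth limits FMO1 in exa1-1 and PBS3, SARD1 and BGL2 in exa1-1 at 39 °C, where single libraries held few counts.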

Other observations

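Of the 59 other pathway genes tested at 23 °C over MS, 20 were higher and 24 lower in exa1-1, against 33.1% and 33.6% of all genes. In the wild type 22 were higher and 21 lower, against 33.3% and 32.8%, so the pathway lay near the shares of all genes. Of the 10 other salicylate-responsive and PR family genes tested, 6 were higher and 4 lower in exa1-1, and 6 higher and 3 lower in the wild type. AZI1, for a lipid transfer protein of systemic immunity, was lower at 23 °C in exa1-1 (log2 fold change −2.40, adjusted p = 4.48e-28) and in the wild type (log2 fold change −3.03, adjusted p = 3.15e-31). LURP1, a defence gene against downy mildew, was higher at 23 °C than in MS in exa1-1 (log2 fold change 2.71, adjusted p = 7.96e-27) and in the wild type (log2 fold change 2.76, adjusted p = 3.38e-29). AT5G10760, also called AED1 and for an apoplastic protein that depends on EDS1, was likewise higher in exa1-1 (log2 fold change 2.86, adjusted p = 1.95e-10) and in the wild type (log2 fold change 2.38, adjusted p = 1.02e-09). Of other lists, DMR6, the salicylate hydroxylase gene, was higher in exa1-1 (log2 fold change 1.67, adjusted p = 2.54e-24) and in the wild type (log2 fold change 1.45, adjusted p = 2.19e-25). WRKY18, a transcription factor gene that acts on salicylate responses, was lower at 23 °C in exa1-1 (log2 fold change −2.49, adjusted p = 1.27e-36) and in the wild type (log2 fold change −1.83, adjusted p = 1.13e-30). SOT12, the sulfotransferase gene, was lower in exa1-1 (log2 fold change −1.63, adjusted p = 3.69e-26) and in the wild type (log2 fold change −1.59, adjusted p = 6.60e-26).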
